A study of Homo sapiens with 6 samples.

Results

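The 54 genes described here mostly encode the nuclear part of mitochondrial complex I and the factors that build it. They were chosen by name: every gene of the expression table whose symbol starts with NDUF, together with ACAD9, TIMMDC1, TMEM126B, ECSIT, FOXRED1 and NUBPL. The table held 17631 genes. Of the 54, 7 are nuclear-encoded core subunits, 30 are accessory subunits, 14 are assembly factors, 2 are the paralogues NDUFA4 and NDUFA4L2, and 1 is NDUFC2-KCTD14, a readthrough transcript of neighbouring genes.

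Complex I (NADH:ubiquinone oxidoreductase) is the entry point of NADH electrons into the respiratory chain. It oxidises NADH at a flavin, passes electrons along a row of iron-sulfur clusters to coenzyme Q, and pumps protons across the inner mitochondrial membrane. Its core subunits carry out this chemistry and are encoded in the nucleus and in mitochondrial DNA, while the accessory subunits surround and stabilise them. Assembly factors join the modules step by step and are absent from the finished enzyme. The core subunits encoded in mitochondrial DNA were not analysed here.

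RNA was measured by RNA-seq in MDA-MB-231, a human triple-negative breast cancer cell line. 3 libraries came from cells given vehicle and 3 from cells given 30 µM PDBAG1, a peptide derived from the GPD1 protein and joined to a cell-penetrating sequence, and both groups were treated for 24 h. The labels also call the source breast cancer tissue, and no source says that the libraries of a group came from separate cultures, so the p-values cover only the spread between these libraries. The deposited values are TPM, the standard RNA-seq level in which reads are divided by transcript length and every library is given an equal total. TPM keeps no sequencing depth, so neither depth nor counting error is known. Levels are given as TPM, and fold changes are differences of log2(TPM + 1), PDBAG1 minus vehicle, with the standard error (SE) of limma, a linear model. The fit took in the 12582 genes that reached 1 TPM in 3 libraries or more. A gene was said to rise or fall where its p, adjusted over those genes by the Benjamini-Hochberg method, was under 0.05.

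The 6 markers listed as present were all at or above 41.1 TPM, and the mesenchymal marker VIM lay between 4174 and 5942 TPM. VIM and CD44 rose (log2 fold changes 0.46 and 0.59), AXL and CAV1 fell (-0.26 and -0.30), and EGFR and ZEB1 passed in neither direction. PGR (a hormone receptor this line lacks) was at most 0.06 TPM, and the epithelial marker CDH1 at most 0.84 TPM. The other markers listed as low were above this, ESR1 at 1.96 to 3.38 TPM and EPCAM at 3.92 to 5.78 TPM. Of 4 measured markers of other cell types, PTPRC, ALB and ADIPOQ stayed at or below 1.41 TPM, and the endothelial marker PECAM1 was 3.97, 4.08 and 3.78 TPM with vehicle and 7.87, 8.91 and 9.15 TPM with PDBAG1. The summed level of the 4 was 5.26 to 5.66 TPM with vehicle and 9.19 to 10.96 TPM with PDBAG1, and its part in the results below was not tested. The SD of log2 differences over all tested genes was 0.14 to 0.18 between libraries of 1 group and 0.28 to 0.30 between groups. By these SDs no library stood apart from its group.

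Many complex I transcripts were slightly lower after PDBAG1, and no member rose. Of the 53 members tested, 24 fell, or 45.3%, against 15.9% of all tested genes. None rose, against 21.7% of all tested genes, and 29 passed in neither direction. The 24 were 1 core subunit, 13 accessory subunits, 8 assembly factors, the readthrough and NDUFA4, now placed in cytochrome c oxidase. The largest fall was that of NDUFAF4, whose mean fell by 24.5%. No member passed a limit of 1.5-fold, which 0.477% of all tested genes passed downwards, 2.86% upwards and 3.34% in either direction. The median log2 fold change was -0.12 over the members and 0.03 over all tested genes. With trends of each library with transcript length and GC content removed, the members' median was -0.024 and that of all tested genes 0.03. The estimate lay below 0 for 51 members, against 44.1% of all tested genes, and above 0 for NDUFV1 and ECSIT. With the trends removed it lay above 0 for 18 of the 53. In 28 members every PDBAG1 library lay below every vehicle library, against 20.2% of all genes, and in 1 member, NDUFV1, every PDBAG1 library lay above, against 27.2% of all genes. The count of falls changed with how transcript length and base composition were treated. Removing those trends left 15 members lower, 12 of them among the 24, against 15.4% of all tested genes. Leaving out the library vehicle 2 also left 15, all among the 24, against 13.3% of all tested genes.

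The plot of the members' levels by library shows the same direction in all 3 PDBAG1 libraries. The median member stood at -0.02, 0.02 and 0.00 in the vehicle libraries and at -0.10, -0.13 and -0.14 in the PDBAG1 libraries, as log2 differences from the vehicle mean. Added up, the members held 9233 ± 252 TPM (mean ± SD, n = 3) with vehicle and 8483 ± 238 TPM with PDBAG1, so the sum dropped by 8.12%. That sum includes NDUFA4, NDUFA4L2 and the readthrough. Summed levels went from 1293 ± 23.0 to 1249 ± 39.3 TPM for the core subunits, from 6765 ± 228 to 6194 ± 181 TPM for the accessory subunits, and from 934 ± 15.0 to 826 ± 22.3 TPM for the assembly factors. For the core sums the groups overlapped, and for the other sums they did not. The difference between the classes was not tested.

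**Figure D1:**
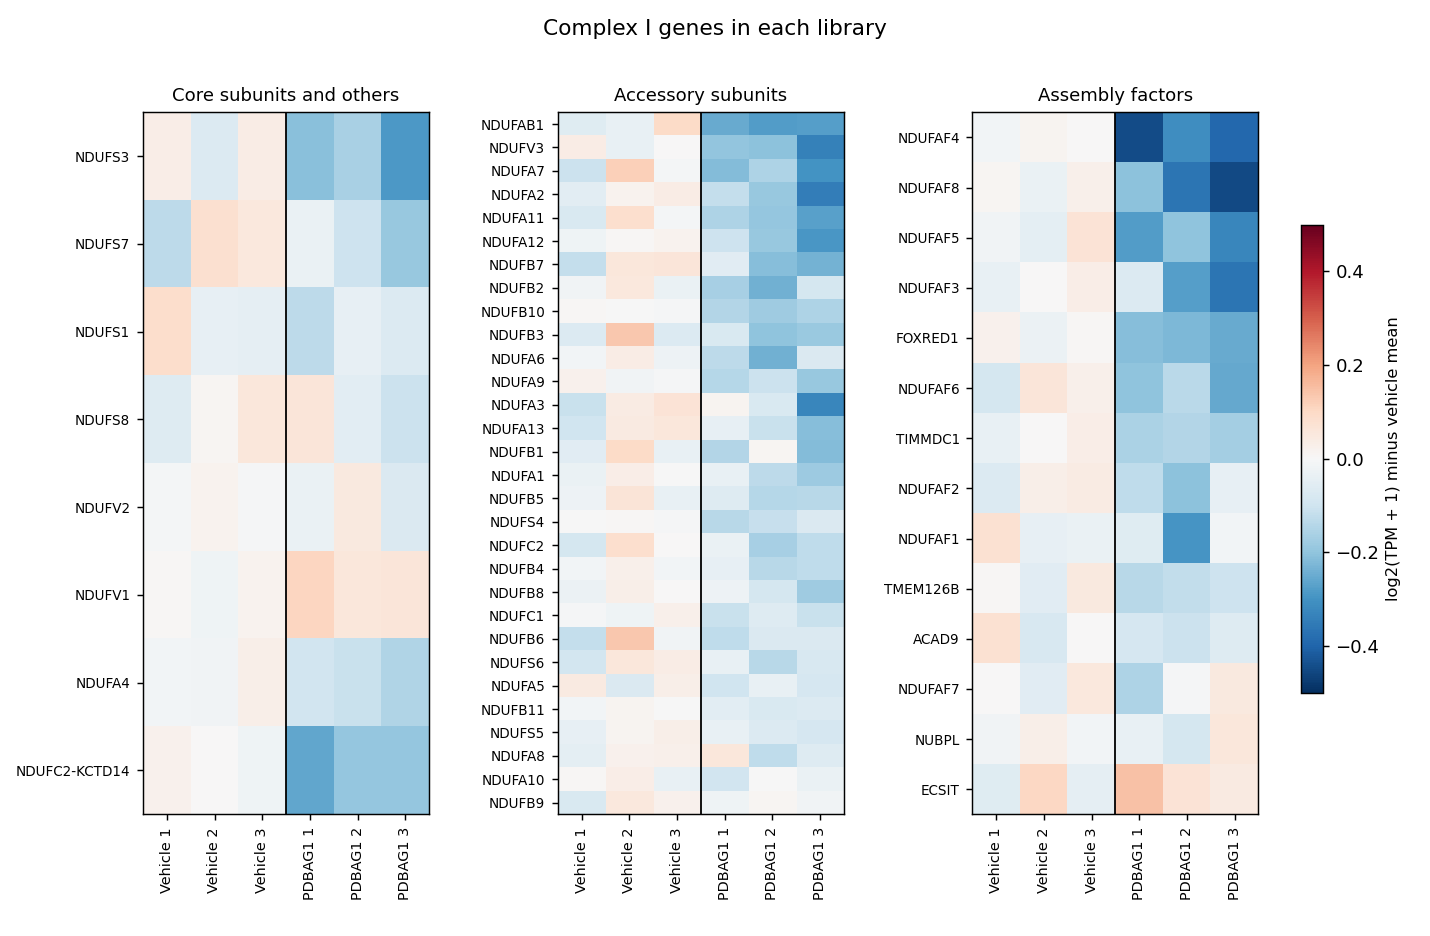
Each row is a gene and each column a library, 3 with vehicle and 3 with PDBAG1, and the colour gives log2(TPM + 1) minus the mean of the vehicle libraries (blue, lower). NDUFAF4, NDUFAF8 and NDUFAB1 are blue in all 3 PDBAG1 libraries, while NDUFV1 and ECSIT are pale red there. NDUFA4L2, which was not tested, and 1 core subunit are left out.

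Among the core subunits only NDUFS3 passed the test. Of the 7, 1 fell (14.3%, against 15.9% of all tested genes) and none rose, with a median log2 fold change of -0.05 and a range of -0.22 to 0.08. NDUFS3, which joins early in assembly and lies in the arm that binds coenzyme Q, was at 153.11, 142.67 and 153.36 TPM with vehicle and at 129.26, 133.68 and 122.47 TPM with PDBAG1. Each PDBAG1 library was below each vehicle library (log2 fold change -0.22, SE 0.047, limma adjusted p = 0.00239), and this call held under all 14 alternative settings. Its exons overlap those of PTPMT1 on the same strand and of CELF1 on the other, so some of its reads may belong to those genes.

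Other core subunits of the Q-binding arm did not pass. NDUFS7, which carries the last iron-sulfur cluster before coenzyme Q, was at 137.04, 158.54 and 155.65 TPM with vehicle and at 146.67, 139.46 and 131.34 TPM with PDBAG1. The groups overlapped (log2 fold change -0.11, limma adjusted p = 0.152), but the gene was called lower with the length and GC trends removed (limma adjusted p = 0.0257) and without vehicle 1 (limma adjusted p = 0.0191). NDUFS8, an iron-sulfur protein between the NADH and Q ends, was at 372.49, 392.42 and 404.95 TPM with vehicle and at 406.09, 375.46 and 362.04 TPM with PDBAG1. Its highest library was a PDBAG1 library and so was its lowest, and the 95% interval of its log2 fold change ran from -0.13 to 0.07.

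The core subunits of the NADH-binding end gave no call, 0 of 3. NDUFV1, which binds NADH and the flavin, was at 147.17, 144.09 and 148.03 TPM with vehicle and at 157.79, 152.44 and 152.70 TPM with PDBAG1. All PDBAG1 libraries were above all vehicle libraries, yet the difference did not pass (log2 fold change 0.08, SE 0.039, limma adjusted p = 0.151, 95% interval -0.01 to 0.16), and it passed only under quantile normalisation among the settings tried. NDUFV2, its iron-sulfur partner, was at 271.45, 276.93 and 272.60 TPM and at 267.56, 282.77 and 260.35 TPM, with overlapping groups and a 95% interval of -0.10 to 0.07. NDUFS1, the large subunit of this end, was at 70.06, 63.97 and 63.86 TPM and at 60.14, 64.06 and 62.80 TPM, also overlapping. NDUFS1 was called lower with the length and GC trends removed (limma adjusted p = 0.0399) and under median-of-ratios scaling (limma adjusted p = 0.0341). NDUFV2 was called higher with the trends removed. In that setting 3 of the 7 core subunits were lower, against 15.4% of all tested genes, while 23.3% of all tested genes were higher. Within each library the ratio of NDUFV1 to NDUFS3 levels was 0.961, 1.01 and 0.965 with vehicle and 1.22, 1.14 and 1.25 with PDBAG1, a pair picked after their values were seen and therefore given without a test.

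**Figure D2:**
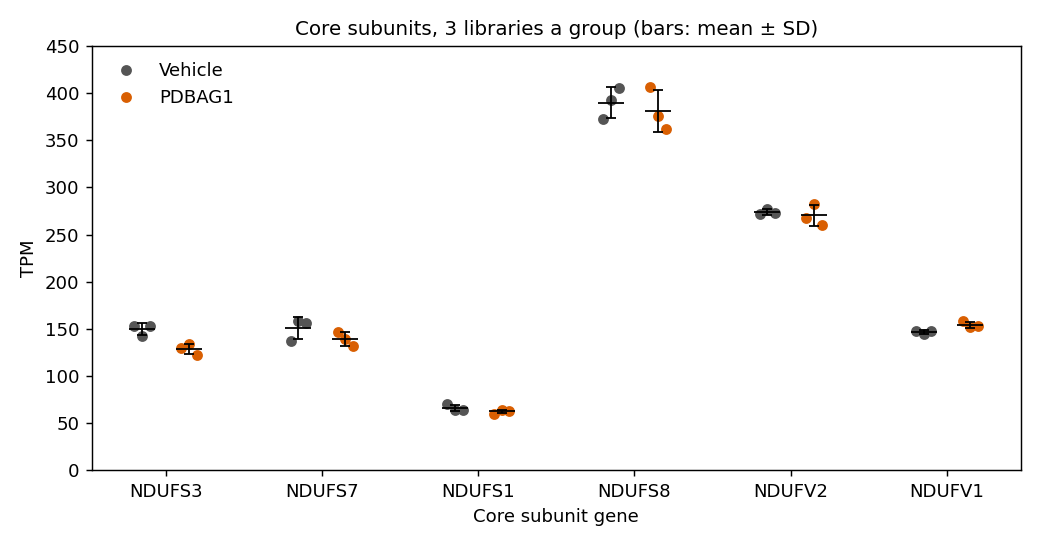
TPM of 6 nuclear-encoded core subunits in each library (points, 3 a group), with the mean and SD of each group as bars. NDUFS3 is the gene whose PDBAG1 points lie wholly below the vehicle points, and NDUFV1 the one whose PDBAG1 points lie wholly above.

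The 3 largest falls were those of assembly factors. Of the 14, 8 fell (57.1%, against 15.9% of all tested genes), with a median log2 fold change of -0.14 and a range of -0.38 to 0.09. With the length and GC trends removed, 5 of the 14 fell, against 15.4% of all tested genes. NDUFAF4, which binds the early Q module together with NDUFAF3, was at 18.76, 19.12 and 18.95 TPM with vehicle and at 13.62, 15.08 and 14.20 TPM with PDBAG1. The groups were well separated, and the log2 fold change of -0.38 (SE 0.066, limma adjusted p = 0.000511) was the lowest of all members. NDUFAF3 itself was at 137.74, 141.73 and 144.89 TPM and at 134.92, 116.57 and 109.61 TPM. Here PDBAG1 1 lay just under the lowest vehicle library and the others well under it (log2 fold change -0.24, SE 0.063, limma adjusted p = 0.00902).

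A second pair of Q-module factors fell as well. NDUFAF5, which hydroxylates an arginine of NDUFS7, was at 22.79, 22.30 and 24.29 TPM with vehicle and at 18.86, 19.97 and 18.21 TPM with PDBAG1. NDUFAF8, the small protein that stabilises NDUFAF5, was at 150.22, 145.69 and 151.90 TPM and at 129.29, 115.66 and 108.78 TPM. Neither gene's groups overlapped, and the log2 fold changes were -0.27 (SE 0.065, limma adjusted p = 0.00507) and -0.34 (SE 0.056, limma adjusted p = 0.00034). By contrast NDUFAF7, a methyltransferase, was at 18.03, 17.31 and 18.74 TPM and at 16.10, 17.94 and 18.67 TPM, overlapping (log2 fold change -0.04, limma adjusted p = 0.717).

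TIMMDC1, a membrane protein that helps join the Q module to the membrane arm, was at 62.65, 64.46 and 65.84 TPM with vehicle and at 57.55, 57.95 and 57.02 TPM with PDBAG1. NDUFAF6, a factor needed for early assembly, was at 40.76, 45.23 and 44.17 TPM and at 37.55, 39.36 and 36.16 TPM. Both genes were lower in every PDBAG1 library, with log2 fold changes of -0.16 (limma adjusted p = 0.0154) and -0.20 (limma adjusted p = 0.0157), and both calls were lost when the length and GC trends were removed and without vehicle 2 or vehicle 3. That of TIMMDC1 was also lost with a replicate block (limma adjusted p = 0.0561). NDUFAF3 to NDUFAF8 and TIMMDC1 were grouped, after their values were seen, as factors acting around the Q module. Together they had 6 of 7 lower, against 15.9% of all tested genes, and a median log2 fold change of -0.24.

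FOXRED1, an oxidoreductase-like factor of later steps, was at 55.10, 53.14 and 54.51 TPM with vehicle and at 46.67, 46.30 and 45.35 TPM with PDBAG1. The spread within its groups was small beside the gap between them (log2 fold change -0.23, SE 0.048, limma adjusted p = 0.00201). NDUFAF2, a relative of NDUFA12 that holds its place during assembly, was at 134.53, 143.78 and 144.97 TPM and at 129.08, 122.14 and 136.87 TPM, and did not pass (log2 fold change -0.13, limma adjusted p = 0.0624). NUBPL, which delivers iron-sulfur clusters to complex I, was at 11.40, 11.81 and 11.44 TPM and at 11.22, 10.81 and 12.04 TPM, among the 3 members nearest to no change (log2 fold change -0.02, 95% interval -0.18 to 0.13).

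In the MCIA complex, NDUFAF1, ACAD9, ECSIT and TMEM126B build part of the membrane arm. Against 15.9% of all tested genes, 1 of the 4 was lower. That was TMEM126B, at 146.59, 140.49 and 151.18 TPM with vehicle and at 132.62, 134.07 and 135.67 TPM with PDBAG1. The groups were apart but the call was marginal (log2 fold change -0.12, SE 0.042, limma adjusted p = 0.0344), was lost under 8 of the 14 alternatives, and the value turned to 0.03 with the length and GC trends removed. ECSIT, an adaptor also known from innate immune signalling, was at 48.65, 54.53 and 49.20 TPM and at 56.21, 53.26 and 52.31 TPM, with overlapping groups (log2 fold change 0.09, limma adjusted p = 0.254). Neither NDUFAF1 (log2 fold change -0.12, limma adjusted p = 0.214) nor ACAD9, a flavoprotein related to fatty acid dehydrogenases (log2 fold change -0.08, limma adjusted p = 0.25), passed.

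**Figure D3:**
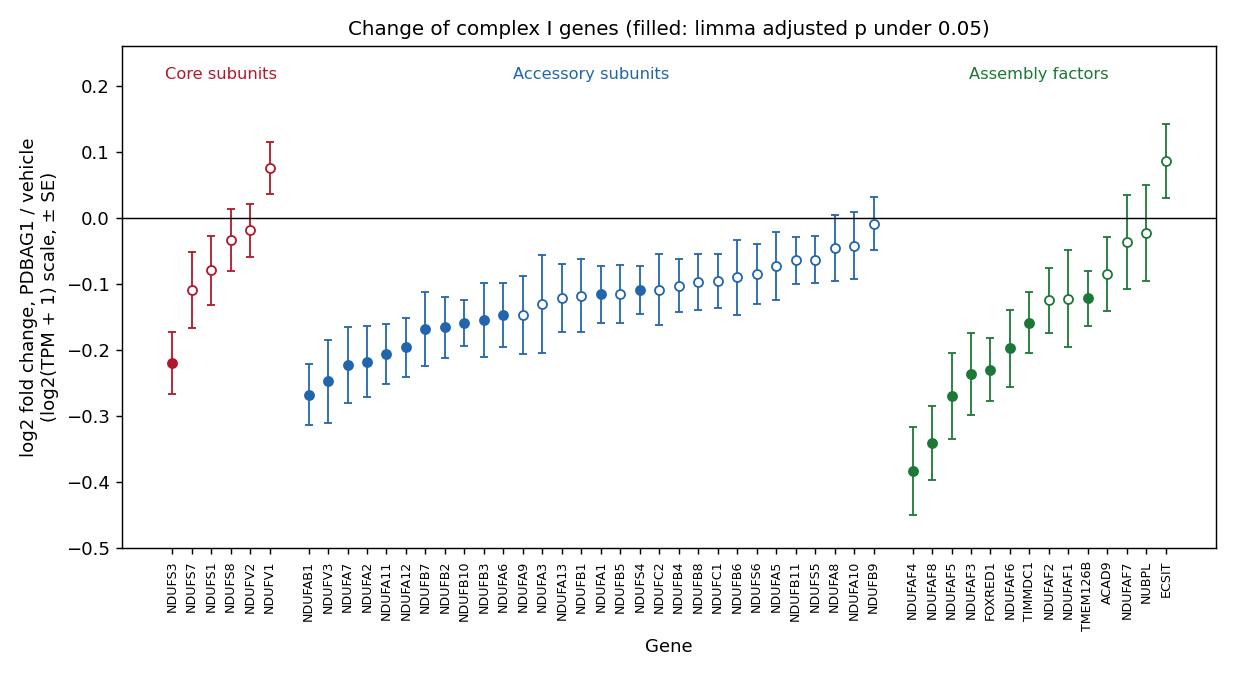
Log2 fold change (PDBAG1 over vehicle, on the log2(TPM + 1) scale) with its SE for 6 core subunits and the accessory and assembly genes, ordered within each class, with filled points for genes called by limma. NDUFAF4 and NDUFAF8 are lowest at -0.38 and -0.34, all 30 accessory points lie below 0, and NDUFV1 and ECSIT alone lie above it.

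Of the 30 accessory subunits 13 fell (43.3%, against 15.9% of all tested genes) and none rose, against 21.7%. All 30 estimates lay below 0, with a median log2 fold change of -0.12 and a range of -0.27 to -0.01. By name group, 6 of 12 NDUFA genes (50%) and 4 of 11 NDUFB genes (36.4%) fell. The median accessory transcript was 667 bases long, and 32.8% of all tested genes of at most 875.5 bases fell. With the length and GC trends removed, 7 of the 30 fell, against 15.4% of all tested genes. NDUFAB1, the mitochondrial acyl carrier protein, which also serves fatty acid and iron-sulfur cluster synthesis, was at 168.09, 170.89 and 187.41 TPM with vehicle and at 147.20, 144.24 and 144.72 TPM with PDBAG1. Its groups did not overlap, and its log2 fold change of -0.27 (SE 0.046, limma adjusted p = 0.000489) was the lowest of the class.

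Several genes of the NADH and Q arms were among the clearest falls. NDUFV3, a small subunit beside NDUFV1, was at 26.33, 24.95 and 25.66 TPM with vehicle and at 22.24, 22.08 and 20.08 TPM with PDBAG1 (log2 fold change -0.25, limma adjusted p = 0.00719). NDUFA2, with a thioredoxin-like fold, was at 178.35, 187.02 and 189.49 TPM and at 170.08, 162.14 and 145.29 TPM (log2 fold change -0.22, limma adjusted p = 0.00597). Both genes were lower in each PDBAG1 library, and PDBAG1 3 was the lowest in each. NDUFA7 was at 132.40, 155.06 and 142.01 TPM and at 122.89, 128.17 and 116.05 TPM, again without overlap (log2 fold change -0.22, limma adjusted p = 0.00743). NDUFA12, which takes the place of NDUFAF2 at the end of assembly, was at 384.90, 392.69 and 395.69 TPM and at 363.47, 342.40 and 319.08 TPM. It too was lower in each PDBAG1 library (log2 fold change -0.20, limma adjusted p = 0.00377), but with the length and GC trends removed the value was -0.01 and the call was lost.

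Subunits of the membrane arm were also among the falls. NDUFA11, next to the proton-pumping subunits, was at 438.46, 490.62 and 459.20 TPM with vehicle and at 414.97, 404.10 and 382.76 TPM with PDBAG1, the most abundant member with vehicle and lower in every PDBAG1 library (log2 fold change -0.21, limma adjusted p = 0.00291). NDUFB10 was at 276.50, 275.12 and 274.36 TPM and at 248.48, 243.46 and 247.55 TPM. Its libraries lay close together within each group and apart between them (log2 fold change -0.16, limma adjusted p = 0.00303). NDUFB2 was at 178.85, 187.86 and 177.29 TPM and at 161.34, 153.22 and 170.34 TPM, without overlap (log2 fold change -0.17, limma adjusted p = 0.0119). With the length and GC trends removed neither NDUFB10, at -0.10, nor NDUFB2, at -0.06, passed. The other 5 that fell were NDUFB7, NDUFB3, NDUFA6, NDUFA1 and NDUFS4, with limma adjusted p between 0.0289 and 0.0492. These calls were weak: NDUFB7, NDUFB3 and NDUFS4 were each lost under 8 of the 14 alternatives, NDUFA6 under 7 and NDUFA1 under 11, and the groups of NDUFB7 overlapped. NDUFB9 was nearest to no change of all members, at 343.84, 376.21 and 368.22 TPM and at 357.20, 364.84 and 358.52 TPM, its PDBAG1 libraries lying inside the vehicle range.

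NDUFA4, once listed with complex I and now known as a subunit of cytochrome c oxidase, was at 106.50, 106.40 and 109.97 TPM with vehicle and at 100.69, 99.53 and 96.86 TPM with PDBAG1. The groups did not overlap and the call was marginal (log2 fold change -0.12, SE 0.042, limma adjusted p = 0.039), lost under 9 of the 14 alternatives. NDUFA4L2, its hypoxia-inducible paralogue, which lowers complex I activity in hypoxia, was at 0.09, 0.00 and 0.00 TPM with vehicle and at 0.09, 0.00 and 0.09 TPM with PDBAG1. It was listed at 0 in 3 libraries and at the same low value in the other 3, did not enter the test, and is given no fold. Its exons overlap SHMT2 on the other strand.

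The readthrough NDUFC2-KCTD14 was at 135.34, 133.45 and 131.54 TPM with vehicle and at 111.30, 116.44 and 116.72 TPM with PDBAG1 (log2 fold change -0.22, SE 0.041, limma adjusted p = 0.0011), a call lost when the length and GC trends were removed, while NDUFC2, a membrane-arm subunit, did not pass (log2 fold change -0.11, limma adjusted p = 0.127). The 2 share exons, so the split of reads between them is uncertain, and their sum is safer to read. It was 232 ± 5.28 TPM with vehicle and 206 ± 1.85 TPM with PDBAG1, and the readthrough held 57.5% ± 1.68 and 55.7% ± 1.84 of it.

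Several other properties of the genes could bear on these values. The exons of 31 of the 54 members overlap those of another annotated gene, 16 on the same strand and 25 on the other, and 21 members have pseudogenes named after them that could share reads. Among the 11 members with neither, 8 fell (72.7%, against 15.9% of all tested genes). The median log2 fold change of the 11 was -0.12, as over all members. Of the 8 calls, those of NDUFA1, NDUFA6, NDUFB7, NDUFS4 and TMEM126B were each lost under 7 to 11 of the 14 alternatives. Those of NDUFV3, NDUFAF5 and NDUFAF8 held under all 14. Short transcripts as a whole were lower after PDBAG1: of the 548 tested genes whose canonical transcript is at most 875.5 bases, the median of the 54 members, 32.8% fell, against 15.3% of the 11885 longer ones. Among the members, 13 of 27 shorter genes and 11 of 26 longer genes fell, with the same median log2 fold change of -0.12. Genes at least as abundant as the lowest tested member, with a mean of 11.5 TPM over the 6 libraries, fell in 21.1% of cases. Length and GC content were not separated: the 1 alternative that bears on them removes the trends of both together. It left a median log2 fold change of -0.02 for the core, -0.02 for the accessory and -0.08 for the assembly genes. Under it 3 of the 7 core, 7 of the 30 accessory and 5 of the 14 assembly genes fell, against 15.4% of all tested genes.

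**Figure D4:**
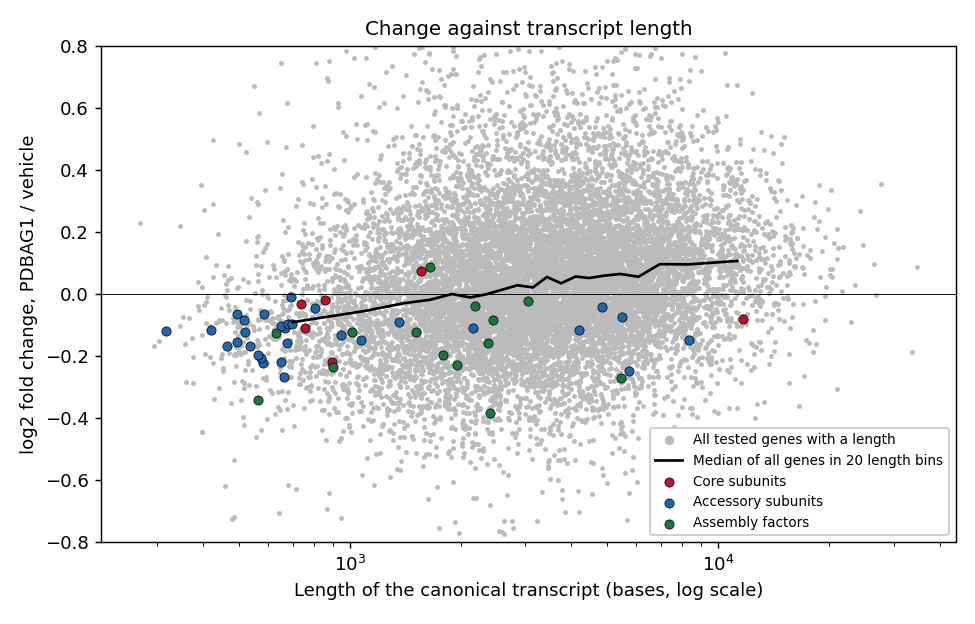
Log2 fold change (PDBAG1 over vehicle) against the length of the canonical transcript (log axis) for the 12433 tested genes with a length (grey), of which 168 lie outside the plotted range, the median of all genes in 20 length bins (line), and 6 core, the accessory and the assembly genes (coloured). The line rises from -0.09 among the shortest genes to 0.11 among the longest, and the assembly factors at -0.38 and -0.27 lie below it at middle and long lengths.

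Stretches of 250 bases upstream of 4 starts are printed, picked by the change, the level or the letters found. NDUFAF4 had the largest fall and TIMMDC1 repeated ETS letters. NDUFAB1 had the largest accessory fall and none of the letters searched, and NDUFA4L2 was near 0 TPM. Neither ECSIT nor NDUFV1, with the estimates above 0, is printed. The stretches come from RefSeq on GRCh38.p14, written 5′ to 3′ on the strand of the gene, which is minus except for TIMMDC1. Positions are chr6:96897892-96898141, chr3:119498297-119498546, chr16:23596317-23596566 and chr12:57240745-57240994 in the order named. Capitals mark ETS letters (CCGGAAG) or a hypoxia-response core (ACGTG or GCGTG) on either strand.
NDUFAF4: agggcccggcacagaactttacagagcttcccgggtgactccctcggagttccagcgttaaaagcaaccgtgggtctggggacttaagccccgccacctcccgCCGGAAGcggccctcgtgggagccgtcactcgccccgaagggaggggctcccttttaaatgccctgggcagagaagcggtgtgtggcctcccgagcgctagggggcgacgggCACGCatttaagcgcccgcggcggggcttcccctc
TIMMDC1: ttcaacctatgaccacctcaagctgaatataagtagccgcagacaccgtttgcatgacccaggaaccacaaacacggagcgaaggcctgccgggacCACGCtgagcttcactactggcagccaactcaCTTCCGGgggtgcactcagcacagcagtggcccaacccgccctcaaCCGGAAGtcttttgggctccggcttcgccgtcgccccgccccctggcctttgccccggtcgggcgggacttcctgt
NDUFAB1: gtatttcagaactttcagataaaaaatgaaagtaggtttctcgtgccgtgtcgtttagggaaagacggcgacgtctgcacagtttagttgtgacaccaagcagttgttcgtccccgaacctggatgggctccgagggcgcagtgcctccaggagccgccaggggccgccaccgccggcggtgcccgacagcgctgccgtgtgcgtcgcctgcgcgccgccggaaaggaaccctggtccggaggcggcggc
NDUFA4L2: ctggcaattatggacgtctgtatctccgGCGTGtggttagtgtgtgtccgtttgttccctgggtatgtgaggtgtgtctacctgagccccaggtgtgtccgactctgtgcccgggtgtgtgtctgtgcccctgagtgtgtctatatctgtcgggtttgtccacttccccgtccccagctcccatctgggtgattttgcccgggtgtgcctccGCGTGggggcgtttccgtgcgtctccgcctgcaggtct

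RefSeq windows from 250 bases before to 50 after the start were matched for 47 members. YY1 letters (AAGATGG) were in the windows of 21.3% of these members and 9.45% of 10296 tested genes, NRF1 letters (GCATGCG) in 17.0% and 7.7%, and ETS letters in 17.0% and 22.8%. These factors are known regulators of nuclear genes for mitochondria. By call, ETS letters were in 27.3% of 22 members that fell and 8.0% of the 25 others, that is in 6 and 2 genes. YY1 letters were in 5 genes of each kind and NRF1 letters in 3 and 5. The hypoxia-response core was in 68.2% and 72.0% of them and in 69.9% of tested genes, and with the ACGTG spelling alone in 8 of 22 members that fell, in 4 of the 25 others and in 32.4% of tested genes. The NRF1 and YY1 spellings and the second hypoxia-response spelling were set after first counts were seen, and no share was tested. These are matches of letters, not binding sites.

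Genes that work with complex I were mixed. The counts below stand beside 15.9% of all tested genes lower, or 21.1% of those at least as abundant as the lowest member, and 21.7% higher. Of 11 further assembly or associated factors, 3 fell and none rose (median log2 fold change -0.07). CHCHD4, which imports and folds small cysteine-rich proteins including complex I subunits, was at 63.95, 59.92 and 61.07 TPM with vehicle and at 45.90, 40.88 and 51.12 TPM with PDBAG1 (log2 fold change -0.42, limma adjusted p = 0.000354). All PDBAG1 libraries lay below all vehicle libraries, whereas AIFM1, its partner, did not pass (log2 fold change 0.06, limma adjusted p = 0.402). TIMM21 (-0.23) and TMEM70 (-0.21), factors of membrane-arm assembly, were the others.

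Of 16 genes of iron-sulfur cluster synthesis, 6 fell and none rose (median log2 fold change -0.11). BOLA3, which helps hand over 4Fe-4S clusters, had a log2 fold change of -0.34, ISCU, the scaffold on which clusters are built, -0.19, and HSPA9, the chaperone that releases them, -0.18. NFU1 and ISCA2, which act late in the pathway, had log2 fold changes of -0.16 and -0.15. Of 13 genes of coenzyme Q synthesis, 4 fell and 2 rose. PDSS1 and PDSS2 together make the isoprenoid tail, and they moved apart: PDSS1 was at 40.93, 40.73 and 40.33 TPM and then at 30.03, 26.91 and 25.34 TPM (log2 fold change -0.55, limma adjusted p = 1.77e-05), while PDSS2 was at 11.21, 10.20 and 12.34 TPM and then at 13.39, 13.11 and 16.14 TPM (log2 fold change 0.31, limma adjusted p = 0.0164). COQ2 and COQ9 fell, with log2 fold changes of -0.23 and -0.16, and COQ10B rose, with 0.17.

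Other enzymes that feed electrons into coenzyme Q had 2 of 10 lower and 1 higher, near or under the shares of all tested genes. SDHD and SDHB of complex II fell, with log2 fold changes of -0.17 and -0.14. SQOR, which oxidises sulfide, was at 97.21, 91.36 and 93.03 TPM with vehicle and at 123.82, 128.12 and 128.55 TPM with PDBAG1, higher in every library (log2 fold change 0.43, limma adjusted p = 5.34e-06). PRODH and CHDH did not pass the filter on low values. Of 4 tested genes of supercomplex or complex III assembly, UQCC3 fell (log2 fold change -0.39).

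Of 7 tested genes tied to hypoxia and respiration, 4 rose, against 21.7% of all tested genes, and none fell, with a median log2 fold change of 0.29. COX4I1, HIGD1A and HIGD2A did not pass, with log2 fold changes of 0.02, -0.09 and -0.06, HIGD1B did not pass the filter on low values, and COX4I2 and MIR210HG were not analysed here. The mitophagy receptor BNIP3 was at 179.74, 189.23 and 182.91 TPM with vehicle and at 419.79, 441.56 and 406.78 TPM with PDBAG1 (log2 fold change 1.195, SE 0.041). Its relative BNIP3L had a log2 fold change of 1.02, PDK1, which restrains pyruvate dehydrogenase, 1.17, and the matrix protease LONP1 0.29. NDUFA4L2 belongs to this hypoxia-linked group by its known regulation and, as given above, stayed near 0.

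**Figure D5:**
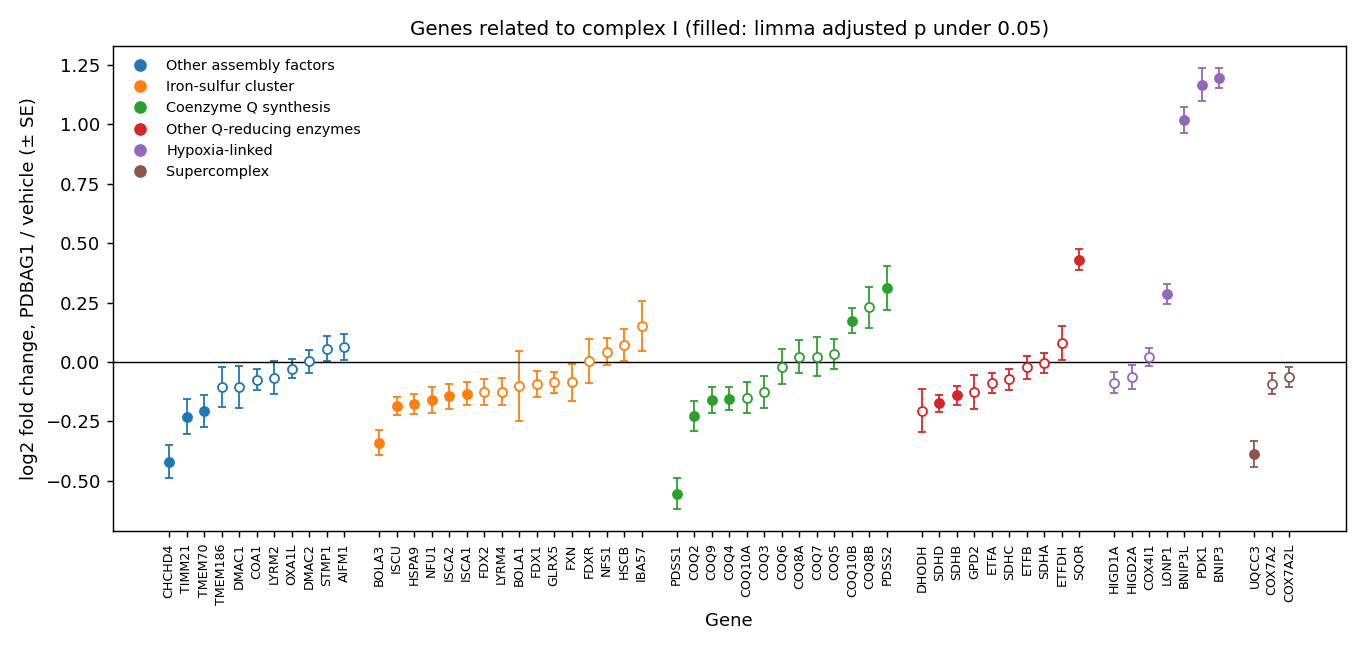
Log2 fold change (PDBAG1 over vehicle, on the log2(TPM + 1) scale) with its SE for 6 lists of genes related to complex I, with filled points for genes called by limma. CHCHD4, BOLA3, PDSS1 and UQCC3 lead the falls of their lists at -0.42, -0.34, -0.55 and -0.39, while BNIP3, PDK1 and BNIP3L lie between 1.02 and 1.195.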

How the data were processed

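The members and gene lists were chosen with earlier results of these data known. RNA-seq was measured in 3 vehicle and 3 PDBAG1 libraries of MDA-MB-231 cells, grouped by the treatment label. By the study's methods, libraries of mRNA were run on a BGISEQ-500, and reads were aligned to GRCh38.p13 by HISAT2 and turned into FPKM. The submitters' processing notes name GRCh38.p12, HISAT2 2.0.4, Bowtie2 2.2.5 and RSEM 1.2.12 without roles. The values the authors deposited are TPM with 2 decimals, and the step to TPM is not given in the sources used here. Genes that reached 1 TPM in 3 libraries or more entered the fit. Then log2(TPM + 1) was fitted in R 4.3.3 with limma 3.58.1 (trend of variance), without a replicate block, and p-values were Benjamini-Hochberg adjusted over 12582 genes. The script was tested on simulated data. An exact permutation test was not used, since 3 libraries against 3 cannot give a p under 0.1.

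Per-library values are given for 6 of the 7 core subunits (1 is not reported here), NDUFA4 and NDUFA4L2, every assembly factor that fell, the 8 accessory subunits with the smallest adjusted p and the 3 members nearest to no change. Values of NDUFAF2, NDUFAF7, ECSIT and NDUFC2-KCTD14, and of AIFM1, COX4I1, HIGD1A, HIGD2A and the ratios, were added after they were seen. From each related list, the genes called were named, up to the 5 with the largest change. Gene positions, transcript lengths and overlaps came from GENCODE v44, which matched 17212 of 17631 genes and all 54 members. Upstream sequences came from RefSeq. The second spelling of the hypoxia-response core and shorter spellings of the NRF1 and YY1 letters were set after first counts with other spellings were seen. The alternatives were other filters, pseudocounts, scalings and variance models, a replicate block, removal of length and GC trends, and leaving out each library.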

Additional observations from a re-analysis of the deposited data

How the results depend on the processing

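Depth is unknown, so counting error could not be separated from the spread of 3 libraries. The count of members that fell went from 24 to 15 with length and GC trends removed and to 15 with no trend of variance. It ranged from 15 to 28 when a library was left out, the lowest being without vehicle 2. Under these 3 settings 15.4%, 12.9% and 13.3% of all tested genes fell, in the order named. The count of 28 came without PDBAG1 1, where 14.3% of all tested genes fell. The cause of the changes in count was not tested. Members that rose went from 0 to 1 under quantile normalisation (NDUFV1) and to 1 with length and GC trends removed (NDUFV2), stayed at 0 when any library was left out, and none passed 1.5-fold under any setting. The median log2 fold change of the core subunits, -0.05, became -0.088 under median-of-ratios scaling, -0.022 under quantile normalisation and -0.018 with length and GC trends removed, and ranged from -0.066 to -0.029 when a library was left out. That of the accessory subunits, -0.12, became -0.16 under median-of-ratios scaling and -0.020 with the trends removed, and ranged from -0.15 to -0.10. That of the assembly factors, -0.14, became -0.18, -0.16 and -0.080 under median-of-ratios scaling, quantile normalisation and removed trends, and ranged from -0.17 to -0.14. With the trends removed, 18 of 53 estimates lay above 0, against 2 before, and among the 25 members followed singly the sign turned for NDUFB9 (0.092), NDUFV2 (0.13), NUBPL (0.037) and TMEM126B (0.030). NDUFB9 also turned under quantile normalisation (0.029). When a library was left out, NDUFB9 ranged from -0.047 to 0.017 and was above 0 without vehicle 2 or 3, NDUFS8 ranged from -0.080 to 0.0028 and NDUFV2 from -0.052 to 0.0074, both above 0 without PDBAG1 3, and NUBPL ranged from -0.063 to 0.0086, above 0 without PDBAG1 2. Over all genes, 57.8% of calls were higher, against 47.2% under median-of-ratios scaling and 46.7% under quantile normalisation. Deviations of same-numbered libraries correlated at -0.21, 0.01 and -0.08, so no shared shift was seen. These correlations cannot tell whether the samples were paired by culture or run. A fit with the replicate number as a block called 18 members lower, all among the 24, against 13% of all tested genes. FOXRED1, NDUFA11, NDUFA2, NDUFA7, NDUFAB1, NDUFAF4, NDUFAF5, NDUFAF8, NDUFS3 and NDUFV3 were called lower under all 14 alternatives. NDUFA4L2 did not enter the test. Without the filter on low values it was fitted with a limma adjusted p of 0.657, and no fold is given.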
